A study of Mus musculus with 15 samples.

Results

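The genes described here are those whose RNA level was measured in macrophages exposed to IFNγ for 18 h, set against control macrophages that received nothing. IFNγ, the type II interferon, is made mainly by T and NK cells. The IFNγ group has 3 arrays, titled IFNg rep1 to rep3, and the control group has 3 arrays, titled Ctrl rep1 to rep3. They are 6 of the 15 arrays of the series, chosen by title, and neither group received LPS. All cells were bone marrow-derived macrophages of specific pathogen-free C57Bl/6 mice, grown in culture and without any labelled genetic change. A further group of 2 arrays held macrophages exposed for 18 h to IFNβ, a type I interferon, again without LPS, and is used to ask whether a change differs between the interferons. These 8 arrays lie on 1 slide. The other 7 arrays held cells given LPS and lie on another slide. They are in no comparison here, but they share the normalization, the detection filter and the estimate of the spread. With only the 6 IFNγ and control arrays normalized and fitted, 2059 of 7021 genes were called, against 2001 of 7669. The labels give no dose for the interferons, and do not say if arrays of 1 group were made from different animals or different dishes, so a p-value rests on a spread that may come from handling alone.

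A gene was a member if its probe was detected on all 3 arrays of the IFNγ group or of the control group, which held for 7021 genes, out of 7669 genes tested in the whole series and 10900 gene symbols listed. On at least 1 of the 6 arrays 7502 genes were detected. Antigen presentation genes and the GTPases that interferon induces, the known hallmarks of this response, were counted but are not described singly. Probes in the deposited table carry a detection p-value, which sets a probe against the background of its own array. A detection p under 0.01 was taken as detected.

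IFNγ binds a surface receptor that signals through Janus kinases. Its target genes carry gamma-activated sites, or the interferon-stimulated response element, on which factors such as IRF1 act. In macrophages IFNγ is the classical activating cytokine: it raises antigen presentation, microbicidal enzymes and chemokines that draw T cells, and restrains programmes of tissue repair. IFNβ signals through another receptor, and the 2 interferons have many target genes in common.

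Values below are log2 intensities after background correction and quantile normalization, and a difference is always IFNγ minus the group it is set against, in log2 units. The median level of all genes tested was 8.03 in IFNγ macrophages and 8.06 in control macrophages. Median raw intensity was 175 to 241 on the IFNγ arrays and 204 to 230 on the control arrays, and 10267 to 10618 probes were detected with IFNγ, against 10250 to 11047 in controls. IFNγ array 1 stood apart from its companions, with correlations of 0.980 and 0.983 against 0.993 between the other two. It also had the lowest median intensity of the 8 arrays of the slide. Correlations among the control arrays were 0.991 to 0.992. Array IFNg_LPS rep1, of a group not compared here, also stood apart from its companions, with correlations of 0.979 and 0.980 against 0.989 between those. The number of arrays limits the precision of every value, and the median standard error of a difference was 0.183.

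Markers of the labelled cell type were present in both groups. Lyz2, which encodes lysozyme, averaged 15.16 with IFNγ and 15.12 in controls, and Adgre1, which encodes F4/80, averaged 12.92 with IFNγ and 13.20 in controls. Neither passed the test (adjusted p = 0.884 and 0.147, limma). Of 7 macrophage markers tested Fcgr3 rose and Cd14, the LPS co-receptor, fell, with a difference of -2.23. The summed normalised intensity of the 7 markers was 57268 to 62305 on IFNγ arrays and 58602 to 60272 on control arrays. Of 4 dendritic cell markers tested, Clec9a and Batf3 rose, while Ccr7 and Siglech were detected on no array of either group. The sum of these 4 was 460 to 475 with IFNγ and 184 to 230 in controls. Their part in the results was not tested. Of 8 neutrophil markers, Csf3r rose and Mmp9 fell, and their sum was 2753 to 3573 with IFNγ and 2664 to 3009 in controls. Of 2 B cell markers, Blnk fell and Cd79b did not pass the test, with sums of 460 to 647 with IFNγ and 1174 to 1271 in controls. No marker of T and NK cells, fibroblasts or mast cells was among the genes tested. In bulk RNA, fewer cells of a type and less RNA per cell cannot be told apart.

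The IFNγ response covered a large part of the transcripts measured. At an adjusted p under 0.05 (limma, Benjamini-Hochberg over all genes tested) 2001 of 7669 genes were called, which is 26.1%. Of these 884 were higher with IFNγ (11.5%) and 1117 were lower (14.6%). These percentages are the background against which each list below is read. Every IFNγ array lay above every control array in 18.1% of genes and below in 25.8%, in all 43.9%. Without IFNγ array 1 the counts of calls were 811 higher and 898 lower, and 1564 genes were called in both fits.

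Rises and falls differed in their size. Among the genes called higher, 403 reached 2-fold, 143 reached 4-fold and 38 reached 16-fold. Among those called lower, 287 reached 2-fold, 44 reached 4-fold and 4 reached 16-fold. Changes under 2-fold made up 481 of the rises and 830 of the falls. Only 31 of the 143 rises of 4-fold or more belonged to antigen presentation or the GTPases, which leaves 112 outside these groups. The balance of small changes depended on the scaling: with cyclic loess 1090 genes were higher and 858 lower, so that 56.0% of calls were rises against 44.2% with quantile normalization. The counts at 4-fold were then 152 higher and 40 lower. The median difference over all genes was -0.07 with quantile normalization and 0.01 with cyclic loess.

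The levels of the called genes are given as a description, since the control level is part of the difference that decides a call. All genes tested had a median level of 8.03 with IFNγ and 8.06 in controls. Genes called higher had a median level of 9.18 with IFNγ and 7.88 in controls, and 112 of the 884 were detected on no control array. Genes called lower had a median level of 8.70 with IFNγ and 9.55 in controls, and 68 of the 1117 were detected on no IFNγ array.

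**Figure D1:**
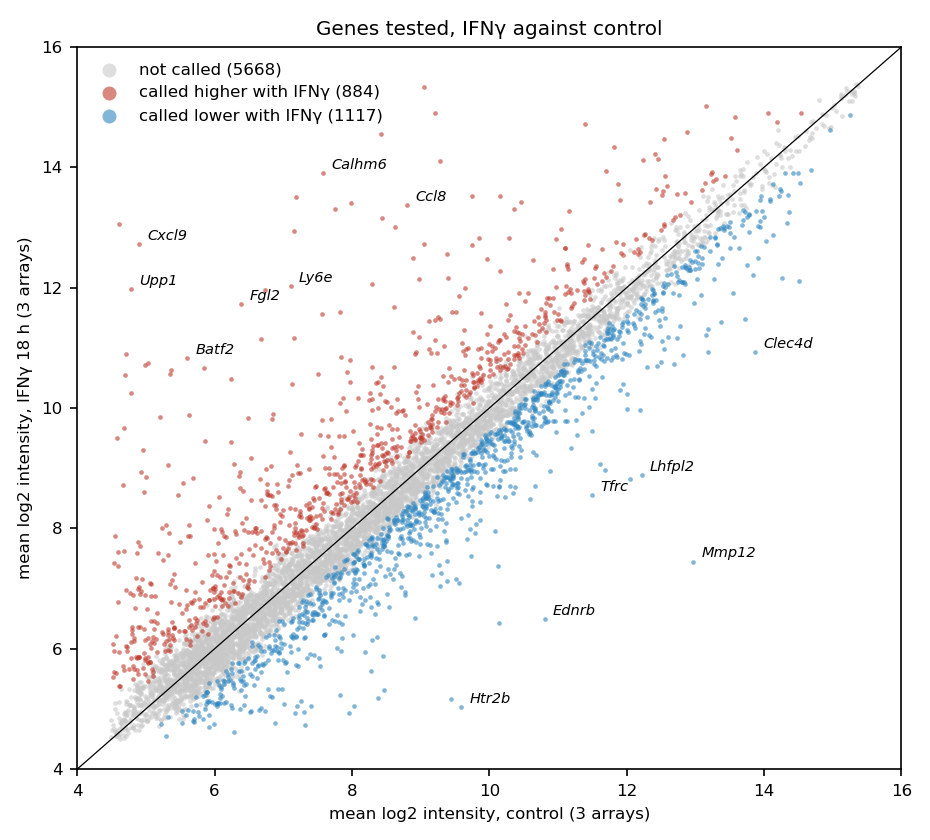
Mean log2 intensity with IFNγ (vertical axis) against control (horizontal axis) for each of 7669 genes tested, with the line of equal level. Red points are the 884 genes called higher and blue points the 1117 called lower at an adjusted p under 0.05. The red points reach far above the line on the left, where control levels are low, while most blue points lie close to it.

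The largest rises among genes detected in both groups belonged to a channel protein, secreted immune regulators, a transcription factor and an antimicrobial ribonuclease. Calhm6, a member of the calcium homeostasis modulator family of channels, measured 14.14, 13.72 and 13.85 on the IFNγ arrays, against 7.63, 7.51 and 7.60 on the control arrays. Fgl2, a fibrinogen-like protein that exists as a membrane prothrombinase and as a secreted immune regulator, measured 12.00, 11.42 and 11.77 with IFNγ, against 6.27, 6.62 and 6.26 in controls. For Batf2, a basic leucine zipper factor of the AP-1 family, the values were 10.86, 10.70 and 10.94 with IFNγ, against 5.54, 5.72 and 5.53 in controls. Control array 1 was here just below the lowest detected signal of that array, 5.56. In all 3 genes the groups were far apart and every IFNγ array was high. The largest rises and falls were chosen among genes without overlap between IFNγ and control arrays. Rnase6, a secreted ribonuclease with antimicrobial activity, measured 12.28, 11.71 and 11.90 with IFNγ, against 6.91, 6.92 and 6.38 in controls. The differences were 6.32 ± 0.16 for Calhm6, 5.35 ± 0.22 for Fgl2, 5.24 ± 0.16 for Batf2 and 5.22 ± 0.29 for Rnase6 (± standard error, 3 arrays each). Their adjusted p-values (limma) were 3.42e-12, 1.74e-10, 9.13e-12 and 6.44e-09.

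Chemokines and T cell ligands formed another part of the upper end. Ccl8, a ligand of chemokine receptors on monocytes and T cells, measured 13.23, 13.39 and 13.51 with IFNγ, against 8.78, 8.84 and 8.77 in controls. Cxcl10, a ligand of Cxcr3 on T cells, measured 10.81, 10.75 and 10.45 with IFNγ, against 6.26, 6.21 and 5.08 in controls. The control arrays spread over more than 1 log2 unit for Cxcl10 and lay close together for Ccl8. For Cxcl10 control array 3, at 5.08, was below the lowest detected signal of that array, 5.41, and so at background. In both genes all IFNγ arrays were above all controls, as the choice of genes demanded. Tnfsf13b, which encodes the B cell survival factor BAFF, was 19.0-fold higher (adjusted p = 4.36e-08, limma). Cd86, a costimulatory ligand for T cells, was 13.7-fold higher, and Sectm1a was 16.1-fold higher. Ly6e, a lipid-anchored surface protein that limits entry of some viruses, was 30.2-fold higher, and Ifit2, an interferon-induced antiviral protein, was 26.5-fold higher. Phf11a and Phf11d, which encode PHD finger proteins, were 22.1-fold and 13.6-fold higher. Whether such close relatives share probe binding was not tested.

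The proximal promoters of the strongly raised genes held the 2 classical interferon motifs more often than those of other genes. The windows, of RefSeq on GRCm38.p6, run from 250 bases before to 50 after the annotated start. They were searched on both strands for a core of the interferon-stimulated response element, GAAA followed after any 2 bases by GAAA, and for TTCNNNGAA, a core of the gamma-activated site. The stretches below, of up to 40 bases on either side of a match and ending at the start, are those of all 7 of the 15 genes with the largest rises in which a match was found. Each is written 5′ to 3′ along the gene, with the match in capitals.
Calhm6: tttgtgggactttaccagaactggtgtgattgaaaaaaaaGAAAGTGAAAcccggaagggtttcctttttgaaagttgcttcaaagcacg
Cxcl10: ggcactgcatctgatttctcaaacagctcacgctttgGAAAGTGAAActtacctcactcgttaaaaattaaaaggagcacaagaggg
Phf11a: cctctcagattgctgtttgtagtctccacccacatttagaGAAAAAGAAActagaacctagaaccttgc
Tnfsf13b: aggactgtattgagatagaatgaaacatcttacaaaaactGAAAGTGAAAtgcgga
Rnase6: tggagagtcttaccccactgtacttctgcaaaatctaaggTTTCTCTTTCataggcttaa
Fgl2: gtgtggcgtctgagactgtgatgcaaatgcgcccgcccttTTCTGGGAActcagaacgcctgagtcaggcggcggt
Ifit2: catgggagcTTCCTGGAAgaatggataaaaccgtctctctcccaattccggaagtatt

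The stretch of Calhm6 is chr10:34127987-34128076 on the minus strand, and its match begins 64 bases before the annotated start. That of Cxcl10 is chr5:92349053-92349139 on the minus strand, with the match 213 bases before the start. Phf11a's is chr14:59297523-59297591 on the minus strand, with the match 29 bases before the start. Tnfsf13b's is chr8:10006577-10006632 on the plus strand, with the match 16 bases before the start. In Rnase6 the core is on the reverse strand, in chr14:51128977-51129036 on the plus strand, 20 bases before 1 annotated start and 47 before another. These 5 are response element cores, and 3 of them share the same letters, GAAAGTGAAA. Fgl2 holds a gamma-activated site core 36 bases before its start, in chr5:21372597-21372672 on the plus strand, and Ifit2 holds one 241 bases before its start, in chr19:34550444-34550501 on the plus strand. Among the named genes with the largest rises or bounds, 14 had a window in the table. Of these 14 genes, 7 held either core, as did 1 of the 18 matched genes with the largest falls. The named genes had up to 3 windows each. The share of all genes tested that held either core was not counted per gene, so these 2 counts have no background. Shares per window over all genes are given below for each core.

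Over all genes called higher by 4-fold or more, 21.4% of 126 windows held the response element core and 18.3% the gamma-activated site core. With antigen presentation and the GTPases left out the shares were 17.3% and 16.3% of 104 windows. For genes called higher by under 2-fold they were 5.26% and 6.02%. Among genes called lower by 4-fold or more, 2.17% of 46 windows held the response element core and 6.52% the gamma-activated site core, and over all genes tested the shares were 3.39% and 7.19%. In the whole table of 32851 windows they were 3.44% and 8.30%. The response element share was thus high in the strongly raised genes and near that of all genes tested in the lowered ones. The matches are a description of letters. A match is no proof of a site in use. The 2 motifs can overlap, and overlapped in 0.123% of the windows of all genes tested.

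**Figure D2:**
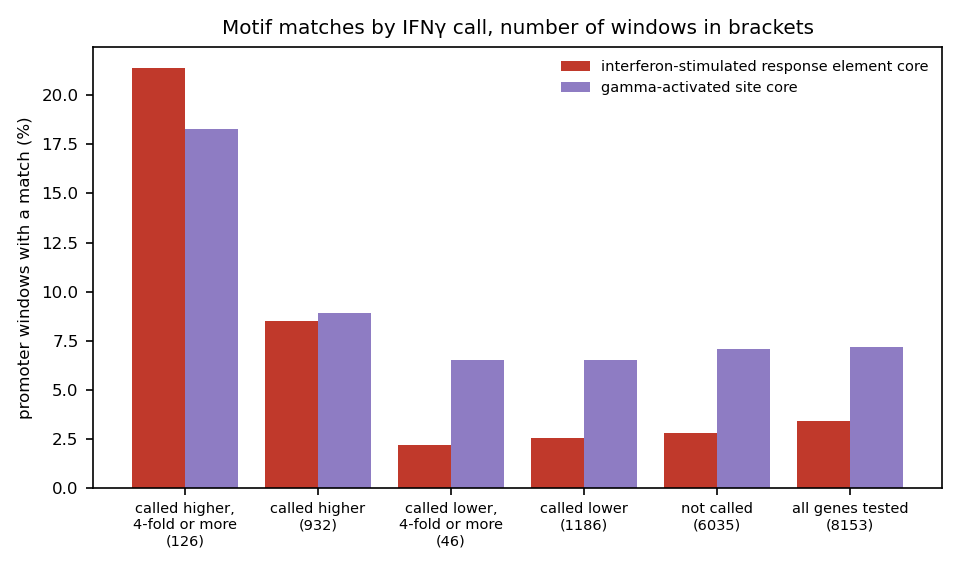
Share of promoter windows (vertical axis, %) that hold the response element core (red) or the gamma-activated site core (purple), for sets of genes defined by the IFNγ call, with the number of windows in brackets. The bars for genes higher by 4-fold or more stand at 21.4% and 18.3%, against 3.39% and 7.19% for all genes tested.

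Some of the most strongly raised genes were detected on no control array, so that their fold is a lower bound against the lowest detected signal. Cxcl9, another Cxcr3 ligand, was at least 146-fold higher with IFNγ. Upp1, uridine phosphorylase, which splits uridine into uracil and ribose phosphate, was at least 87.1-fold higher. Its values were 11.92, 11.85 and 12.14 with IFNγ, against 4.55, 5.06 and 4.72 in controls. Every control array was at background and every IFNγ array was bright. Dnase1l3, a secreted nuclease, was at least 41.3-fold higher, and Ch25h, the enzyme that makes 25-hydroxycholesterol, at least 37.4-fold higher. Hcar2, the receptor for nicotinic acid and β-hydroxybutyrate, was at least 34.4-fold higher, and Cnn3, an actin-binding calponin, at least 26.5-fold higher. For Il12rb1, the receptor subunit shared by IL-12 and IL-23, the bound was 17.7-fold, and for the anion transporter gene Slco3a1 it was 13.7-fold. The adjusted p-values of these 8 genes were at most 9.67e-10 (limma).

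**Figure D3:**
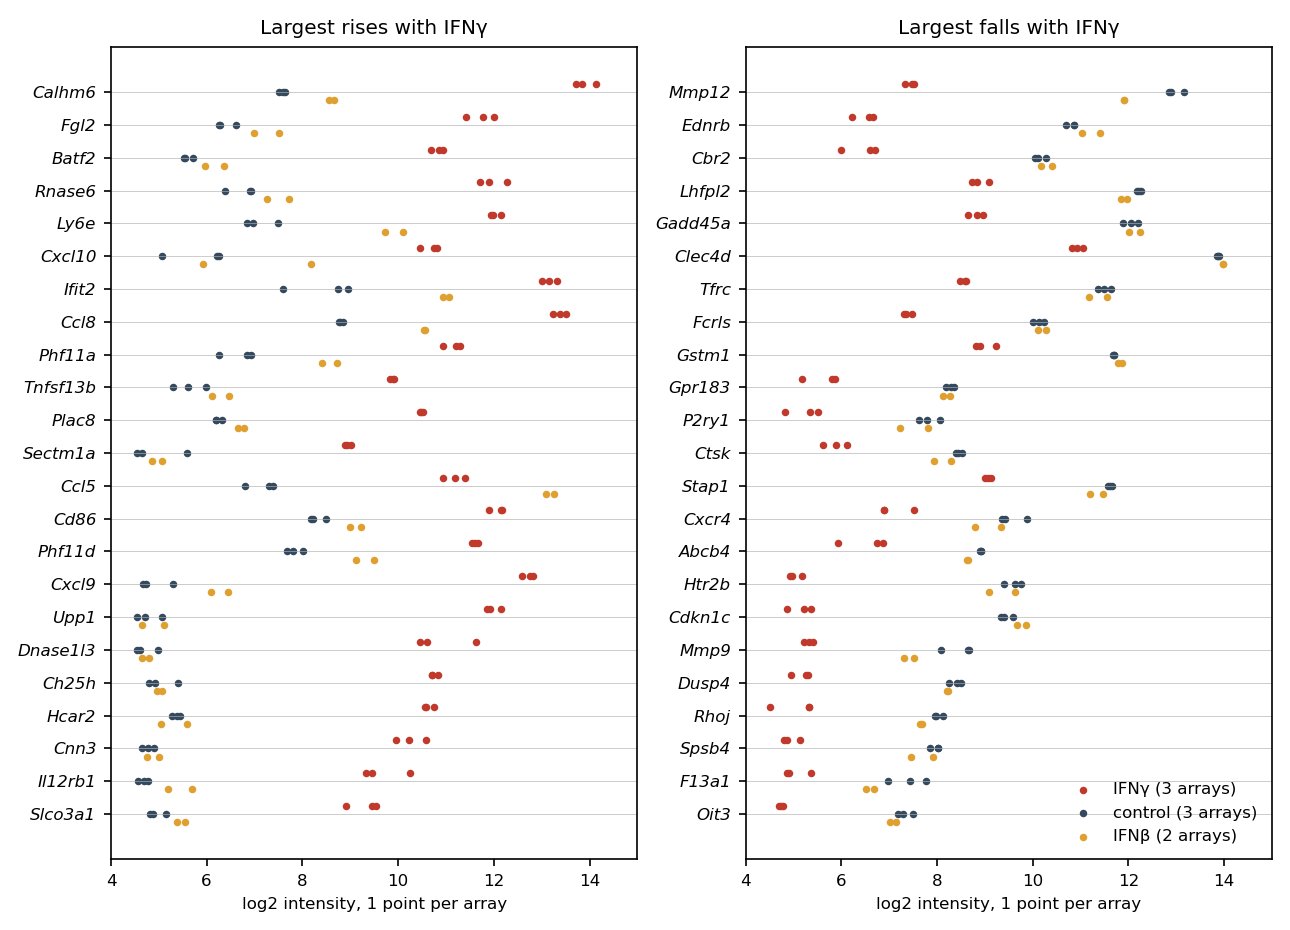
Log2 intensity on each array (horizontal axis, 1 point per array) for the named genes with the largest rises (left) and falls (right). Red points are IFNγ, dark points control and yellow points IFNβ. The genes were chosen so that the red points are clear of the dark points. Ccl5 is the gene on the left in which the IFNβ points lie above the IFNγ points.

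The largest falls included proteases, surface receptors and detoxifying enzymes. Mmp12, the macrophage elastase, measured 7.52, 7.34 and 7.49 on the IFNγ arrays, against 12.88, 13.17 and 12.84 on the control arrays, a difference of -5.51 ± 0.68. Ednrb, the endothelin B receptor, measured 6.23, 6.59 and 6.66 with IFNγ, against 10.87, 10.69 and 10.86 in controls. Cbr2, a carbonyl reductase, measured 5.99, 6.60 and 6.70 with IFNγ, against 10.28, 10.05 and 10.11 in controls. The groups were separated in all 3 genes, as the choice of genes demanded, with IFNγ array 1 the lowest in Ednrb and Cbr2. Their adjusted p-values were 2.80e-05, 1.46e-10 and 3.38e-06 (limma). The standard error of each gene uses the spread within groups over all 15 arrays, which was large for Mmp12.

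Lhfpl2 was 10.1-fold lower and Gadd45a, a stress-induced growth arrest protein, 9.38-fold lower. Clec4d, a lectin that recognises mycobacterial glycolipid, measured 11.05, 10.92 and 10.82 with IFNγ, against 13.89, 13.86 and 13.85 in controls. It was 7.67-fold lower and stayed detected on every array of both groups. Fcrls, an Fc receptor-like scavenger receptor, was 6.70-fold lower. Stap1, a signalling adaptor, was 5.86-fold lower, and Abcb4, a phospholipid transporter, 5.26-fold lower. Ctsk, the collagen-degrading cathepsin K, was 5.95-fold lower.

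A further 8 lowered genes named here were detected on no IFNγ array, so that their folds are bounds. Htr2b, a serotonin receptor, measured 4.93, 5.18 and 4.97 with IFNγ, against 9.75, 9.63 and 9.40 in controls, at least 16.5-fold lower. Cdkn1c, the cell cycle inhibitor p57, measured 4.87, 5.23 and 5.37 with IFNγ, against 9.40, 9.60 and 9.34 in controls, at least 14.9-fold lower. Both genes were at background on all IFNγ arrays and well measured on all controls. Mmp9, gelatinase B, was at least 7.58-fold lower and Dusp4, a phosphatase that inactivates MAP kinases, at least 7.16-fold lower. For Rhoj, Spsb4, F13a1 and Oit3 the bounds were 5.56-fold, 5.34-fold, 3.62-fold and 3.42-fold. F13a1 encodes the A chain of coagulation factor XIII.

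The 2 interferons were compared directly to see which of these changes were of different size after IFNβ. IFNγ against IFNβ gave 1582 called genes (20.6%), with 735 higher in IFNγ macrophages (9.58%) and 847 lower (11.0%). The arrays of the 2 interferons did not overlap in 51.3% of genes, with IFNγ above in 21.5% and below in 29.8%. Without IFNβ array 1 the count was 868 and without IFNβ array 2 it was 867. The doses are not given, so a difference between interferons and a difference of dose cannot be told apart. The comparison uses the same IFNγ arrays as the one against controls. Genes chosen for extreme IFNγ values are thereby favoured to differ from IFNβ in the same direction. The counts of such genes are given as a description only.

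Of the 15 named genes with the largest rises, 14 were higher with IFNγ than with IFNβ and 1, Ccl5, was lower. Ccl5, a chemokine that attracts T cells and monocytes, measured 11.20, 10.93 and 11.39 with IFNγ, 13.25 and 13.08 with IFNβ, and 7.39, 6.81 and 7.29 in controls. It therefore stood highest after IFNβ, with an IFNγ minus IFNβ difference of -1.99 (adjusted p = 2.85e-06, limma). All 15 named largest falls were lower with IFNγ than with IFNβ. In Clec4d the IFNβ arrays read 13.98 and 13.97, and in Gadd45a 12.24 and 12.01, close to the control values. In Mmp12 they read 11.90 and 11.91, below every control array. The 8 genes with bounds in each direction were called in the same direction against IFNβ.

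Several raised genes outside the upper end did not pass the test between interferons. Siglec1, the sialic acid-binding macrophage receptor CD169, measured 8.68, 8.40 and 8.62 with IFNγ, 8.47 and 8.36 with IFNβ, and 6.92, 6.75 and 6.60 in controls. Slfn2, of the Schlafen family, measured 10.07, 9.96 and 9.86 with IFNγ, 10.06 and 9.84 with IFNβ, and 8.57, 8.67 and 8.98 in controls. In both genes the ranges of the interferon groups overlapped and lay above the controls, with IFNγ minus IFNβ differences of 0.15 ± 0.19 for Siglec1 and 0.02 ± 0.16 for Slfn2. Psat1, the serine synthesis enzyme phosphoserine aminotransferase, went the other way: 11.15, 11.05 and 10.81 with IFNγ, 8.28 and 8.44 with IFNβ, and 9.37, 9.94 and 9.75 in controls. In this gene every IFNγ array lay above and both IFNβ arrays lay below all control arrays, with an IFNγ minus IFNβ difference of 2.65 (adjusted p = 5.11e-07, limma).

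Metabolic enzymes were prominent in both directions. Of 24 genes of nucleotide metabolism tested, 11 rose and 1 fell, so that 45.8% were called higher against 11.5% of all genes tested. The median difference was 0.44, against -0.07 over all genes. Samhd1, which breaks down deoxynucleotides, measured 13.48, 13.39 and 13.40 with IFNγ, against 10.49, 10.47 and 10.44 in controls. The arrays of each group lay within 0.1 log2 units, and the rise was 7.78-fold (adjusted p = 1.44e-10, limma). Upp1, described above, had the largest change of the list. Cmpk2, a mitochondrial nucleotide kinase, was 6.38-fold higher, Ada, adenosine deaminase, 3.42-fold higher, and Apobec3, a cytidine deaminase that restricts retroviruses, 3.28-fold higher. Enpp4 was at least 2.57-fold higher. The largest uncalled members were Uck2, with a difference of -0.56, and Nt5c, with 0.48.

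Genes of tryptophan breakdown and NAD turnover showed rises without falls. Of 11 tested 5 rose (45.5%, against 11.5% of all genes) and 0 fell, and the median difference was 0.27. Kynu, kynureninase, measured 8.65, 8.59 and 8.95 with IFNγ, against 4.71, 4.65 and 4.63 in controls, where it was undetected, at least 9.20-fold higher. Wars, the cytosolic tryptophan tRNA synthetase, measured 11.39, 11.83 and 11.83 with IFNγ, against 8.53, 8.69 and 8.62 in controls. Nampt, the rate-limiting enzyme of NAD salvage, measured 11.09, 10.64 and 10.79 with IFNγ, against 7.72, 8.22 and 7.60 in controls. Bst1, an ectoenzyme that cleaves NAD, was at least 8.49-fold higher. These 4 genes were thus bright with IFNγ and much dimmer or undetected in controls. Ido1, the first enzyme of the kynurenine pathway and a textbook IFNγ target, passed the test (adjusted p = 0.0116, limma) but was detected on no array of either group, so no fold is given. Afmid and Sirt1, the largest uncalled members, had differences of 0.27 and 0.24.

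**Figure D4:**
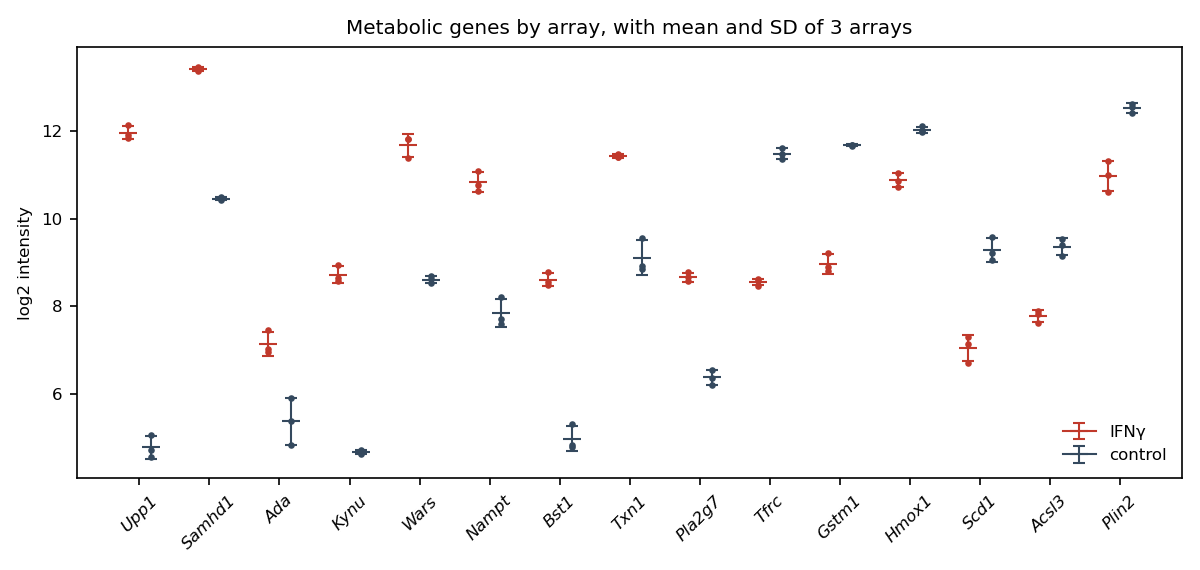
Log2 intensity by array (vertical axis) of 15 metabolic genes, with the mean and SD of 3 arrays; IFNγ is red, control dark. The nucleotide, tryptophan and NAD genes on the left and Txn1 and Pla2g7 are higher with IFNγ, and the iron, glutathione and lipid genes on the right are lower.

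Iron and haem handling moved mostly down. Of 17 genes tested 8 fell (47.1%, against 14.6% of all genes) and 1 rose, with a median difference of -0.42. Tfrc, the transferrin receptor, measured 8.62, 8.48 and 8.59 with IFNγ, against 11.63, 11.48 and 11.37 in controls. Ncoa4, the receptor that delivers ferritin to lysosomes, measured 9.32, 9.15 and 9.07 with IFNγ, against 10.53, 10.31 and 10.49 in controls. Hmox1, haem oxygenase, measured 11.05, 10.73 and 10.88 with IFNγ, against 11.99, 12.00 and 12.12 in controls. Tfrc was 7.64-fold, Ncoa4 2.41-fold and Hmox1 2.22-fold lower, with no overlap between the groups. Blvrb, another biliverdin reductase, measured 13.36, 13.01 and 13.19 with IFNγ, against 12.89, 12.91 and 12.87 in controls. All its IFNγ arrays lay above the controls, but the difference of 0.29 did not pass the test (adjusted p = 0.128, limma). Slc40a1, the iron exporter ferroportin, was 1.84-fold lower, and Blvra, biliverdin reductase, 1.57-fold lower. With median scaling these last 2 did not pass the test and 3 of the 17 genes were called lower. Cp, ceruloplasmin, the 1 riser at 0.72 (adjusted p = 0.0243, limma), was not called without IFNγ array 1, IFNγ array 3 or control array 3, at 0.70, 0.67 and 0.51. It was also not called without background correction, at 0.24, or with an offset of 50, at 0.46.

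Antioxidant genes followed a like pattern with 1 large exception. Of 26 genes of glutathione, Nrf2 targets and metallothioneins 7 fell (26.9%, against 14.6% of all genes) and 2 rose (7.69%, against 11.5%). The median was -0.33. Gstm1, a glutathione transferase, measured 8.81, 9.23 and 8.89 with IFNγ, against 11.70, 11.70 and 11.67 in controls, a difference of -2.71. A second Gstm1 probe gave -0.71 (adjusted p = 0.0600, limma), and the transferases of this family are close in sequence. Srxn1, sulfiredoxin, was 2.08-fold lower, Cbr3 2.11-fold lower and Gsto1 1.74-fold lower. Txn1, thioredoxin, ran against the list: 11.49, 11.41 and 11.42 with IFNγ, against 8.93, 9.57 and 8.86 in controls, a difference of 2.32. All IFNγ arrays were higher than all controls for Txn1.

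Fatty acid, triglyceride and eicosanoid enzymes were called lower more often than higher. Of 39 tested 13 fell (33.3%, against 14.6% of all genes) and 2 rose (5.13%, against 11.5%), with a median of -0.14. Scd1, which puts the first double bond into saturated fatty acids, measured 6.71, 7.14 and 7.30 with IFNγ, against 9.22, 9.58 and 9.06 in controls. Acsl3, an acyl-CoA synthetase of lipid droplets, was 3.01-fold lower, and Plin2, the droplet coat protein, 2.94-fold lower. Ltc4s, leukotriene C4 synthase, was 2.78-fold lower. The risers were Pla2g7, which degrades platelet-activating factor, 4.91-fold higher, and Tbxas1, thromboxane synthase, 2.12-fold higher. With cyclic loess 5 were called higher and 11 lower. Among 20 genes of serine synthesis and Atf4 targets, 5 fell (25%, against 14.6% of all genes) and 2 rose (10%, against 11.5%). Atf5 was 3.63-fold lower, Asns, asparagine synthetase, 1.72-fold lower, and the amino acid transporter gene Slc38a2 1.82-fold lower, while Psat1 was 2.49-fold higher. The falls numbered 3 without control array 1 or without control array 3. The other riser, Ddit3, had a difference of 0.63 and lost its call without IFNγ array 2 (0.54), IFNγ array 3 (0.61), control array 2 (0.60) or control array 3 (0.58).

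G protein-coupled receptors outside the chemokine family were among the lists with the largest share of calls. Of 32 tested 14 rose and 7 fell, 65.6% against 26.1% of all genes. Fpr2, a formyl peptide receptor, measured 8.25, 8.65 and 8.68 with IFNγ, against 5.95, 5.87 and 6.36 in controls, 5.52-fold higher. Gpr18 was 4.68-fold higher and, as given above, Hcar2 appeared from background. Among purine receptors, P2ry1 measured 4.82, 5.34 and 5.52 with IFNγ, against 7.79, 8.07 and 7.62 in controls, and P2ry14, P2ry12 and P2ry13 rose by 2.12, 0.94 and 0.74. The last 3 were picked after their values were seen. Receptors for nucleotides were thus found on both sides. Gpr183, which binds an oxysterol made from the product of Ch25h, measured 5.18, 5.88 and 5.81 with IFNγ, against 8.35, 8.30 and 8.18 in controls, 6.31-fold lower. For Gpr183 IFNγ array 1 was below the lowest detected signal of that array, 5.52. For P2ry1 IFNγ arrays 1 and 2 were below theirs, 5.52 and 5.61. Gpr34 and Gpr84 had differences of -0.65 and -0.41 and did not pass the test. A second Gpr34 probe gave -1.02 and did pass (adjusted p = 0.0141, limma). A second Gpr84 probe gave 0.27 and did not pass (adjusted p = 0.287, limma).

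Chemokines and their receptors split into 7 raised (26.9%, against 11.5% of all genes) and 6 lowered (23.1%, against 14.6%) genes of 26 tested. The median difference was -0.01 and the mean 0.68, and the median was 0.08 with cyclic loess. Ccl12, a monocyte attractant, measured 13.44, 13.58 and 13.53 with IFNγ, against 9.56, 9.95 and 9.75 in controls, 13.6-fold higher. Cxcr4, the receptor for Cxcl12, measured 7.51, 6.89 and 6.89 with IFNγ, against 9.89, 9.42 and 9.35 in controls, 5.49-fold lower. Ccl9 and Ccl3, chosen after their values were seen, fell by 2.39 and 1.88. The list therefore held ligands on both sides of zero.

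Cytokine and growth factor receptors were raised in 8 (26.7%, against 11.5% of all genes) and lowered in 5 (16.7%, against 14.6%) of 30 genes tested. The median difference was 0.28. Flt1, a receptor for vascular endothelial growth factor, measured 8.93, 8.89 and 8.74 with IFNγ, against 4.98, 4.98 and 5.05 in controls, at least 10.0-fold higher. Il15ra, which presents IL-15, was at least 2.68-fold higher, though another of its probes gave a difference of 0.18 (adjusted p = 0.591, limma), and Il10ra, the ligand-binding chain of the IL-10 receptor, 3.98-fold higher. Acvrl1, a receptor of the TGFβ superfamily, was 3.73-fold higher. Il7r measured 9.75, 9.43 and 9.48 with IFNγ, against 11.23, 11.38 and 11.24 in controls, 3.31-fold lower. Subunits of receptors for IL-12, IL-15 and IL-10 were thus higher, and the IL-7 receptor chain lower.

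Lectins and paired receptors moved both ways in about equal number. Of 42 tested 11 rose (26.2%, against 11.5% of all genes) and 12 fell (28.6%, against 14.6%). Cd69, an early activation antigen, was at least 11.5-fold higher, and Klrk1, which encodes the NKG2D receptor, at least 4.29-fold higher. Mgl2 and Clec10a, galactose-type lectins, measured 9.43, 10.02 and 9.97 for Mgl2 and 9.92, 9.76 and 9.79 for Clec10a with IFNγ, against 7.80, 7.51 and 7.37 for Mgl2 and 7.84, 7.64 and 7.60 for Clec10a in controls. They are textbook markers of IL-4 activated macrophages, and both were over 4-fold higher with IFNγ. Whether these related genes, with 1 probe each, share probe binding was not tested. The mannose receptor gene Mrc1, another such marker and chosen after its value was seen, fell by 1.12. Markers of that state therefore lay on both sides.

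Surface proteins of the Ly6, tetraspanin and Ms4a families fell in 9 of 19 cases (47.4%, against 14.6% of all genes). They rose in 3 (15.8%, against 11.5%), with a median of -0.34 and a mean of 0.01. Cd9, a tetraspanin, measured 11.11, 11.29 and 11.25 with IFNγ, against 13.15, 13.12 and 13.20 in controls. Ms4a7 measured 13.04, 13.11 and 13.07 with IFNγ, against 14.41, 14.25 and 14.33 in controls. Both fell evenly on all arrays. Ly6c1 was 4.79-fold higher and, with Ly6e, formed the upper end. Close Ly6 paralogs may share probe binding, which was not tested. Among 18 integrins and adhesion receptors 7 rose (38.9%, against 11.5% of all genes) and 2 fell (11.1%, against 14.6%). The count lower was 1 when any 1 of the control arrays or IFNγ array 1 was left out. Itgb7, an integrin chain of gut-homing cells, was 9.23-fold higher and Icam1, the ligand of LFA-1, 5.71-fold higher. Alcam was 2.71-fold lower.

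Lysosomal enzymes changed in opposite directions within a family. Of 40 genes tested 5 rose (12.5%, against 11.5% of all genes) and 9 fell (22.5%, against 14.6%). The share of rises was thus near that of all genes. Ctsc, cathepsin C, which activates granule proteases, measured 14.37, 14.34 and 14.31 with IFNγ, against 11.83, 11.75 and 11.89 in controls. Ctsh, cathepsin H, was 3.22-fold higher and Ppt1, a palmitoyl thioesterase, 4.95-fold higher. Ctsl, cathepsin L, measured 4.97, 5.27 and 5.13 with IFNγ, against 7.55, 7.03 and 7.18 in controls, at least 3.26-fold lower, and Ctsk also fell. Cathepsins C and H were thus higher while L and K were lower. With median scaling 7 of the list rose and 5 fell, and the median changed sign, -0.11 with quantile normalization and 0.09 with median scaling. Lgmn, asparaginyl endopeptidase, had a difference of -0.36 and did not pass the test.

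Matrix proteins and proteases fell in 8 (29.6%, against 14.6% of all genes) and rose in 3 (11.1%, against 11.5%) of 27 genes. Besides Mmp12 and Mmp9, Adam19 was 2.82-fold lower. Tgm2, tissue transglutaminase, measured 14.04, 14.34 and 14.31 with IFNγ, against 12.41, 12.29 and 12.53 in controls, 3.52-fold higher. Tgfbi, an adhesive matrix protein, was 2.53-fold higher and Hpse, heparanase, 2.25-fold higher. Complement genes rose in 4 (40%, against 11.5% of all genes) and fell in 2 (20%, against 14.6%) of 10 cases. Of these 10 genes 8 were detected on at least 1 IFNγ or control array. C4b was 4.88-fold higher and C1qa 2.79-fold higher. Cfb was at least 1.09-fold higher, and without background correction it was not called (difference 0.30, adjusted p = 0.124, limma). The remaining riser, C1qc, had a difference of 0.38. It lost its call when any 1 of the control arrays, IFNγ array 1 or IFNγ array 3 was left out. The count higher was 3 without any 1 of the control arrays or without IFNγ array 3. The 2 lowered complement regulators, Cd59a and Cr1l, had differences of -0.49 and -0.44. Neither was called without any 1 of the control arrays or without IFNγ array 1. Without IFNγ array 1 Cd59a stood at -0.30 and Cr1l at -0.38.

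Transcription factors were called more often than most lists. Of 35 lineage and lymphoid-myeloid factors 13 rose and 9 fell, 62.9% against 26.1%, and the median was -0.12 while the mean was 0.26. Besides Batf2, Batf3 was 2.87-fold higher, Sp140, a nuclear body protein, 3.11-fold higher, and Nfil3 2.23-fold higher. Ets2 measured 8.36, 8.80 and 8.93 with IFNγ, against 10.12, 10.51 and 10.48 in controls, 3.19-fold lower. Pparg and Maf, factors of lipid-handling and resident-type macrophages that were chosen after their values were seen, both fell by 1.04. Of 32 genes of the immediate early group and MAP kinase feedback 5 rose (15.6%, against 11.5% of all genes) and 8 fell (25%, against 14.6%). Without IFNγ array 1 these counts were 3 and 6, so the rises are not read as a property of the list. Dusp28 was 4.47-fold higher and Klf2 3.37-fold higher, while Dusp6 was 2.21-fold lower and Rgs16 at least 1.61-fold lower. Phosphatases of the Dusp family thus moved in both directions.

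Death receptors, caspases and the Bcl2 family rose in 10 of 27 cases (37.0%, against 11.5% of all genes). They fell in 2 (7.41%, against 14.6%), with a median of 0.34. Fas measured 9.07, 8.88 and 9.01 with IFNγ, against 7.37, 7.36 and 7.38 in controls, 3.08-fold higher. Pmaip1, which encodes the BH3-only protein Noxa, was 2.35-fold higher, Daxx 2.17-fold higher and Tnfrsf1a, a TNF receptor, 2.13-fold higher. Birc2, an inhibitor of apoptosis, was 2.01-fold higher, while another of its probes gave a difference of 0.23 (adjusted p = 0.466, limma). Receptors and promoters of cell death were among the raised genes. The number called lower was 0 without IFNγ array 1 or without control array 3. It was 1 without IFNγ array 3, control array 1 or control array 2.

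Smaller antiviral families rose in part. Among 10 Schlafen and p200 genes 4 rose (40%, against 11.5% of all genes) and 0 fell. Of these 10 genes 8 were detected on at least 1 IFNγ or control array. Ifi205 was at least 3.73-fold higher, Slfn1 at least 4.20-fold, Ifi204 6.23-fold and Slfn2 2.34-fold. Aim2, the cytosolic DNA sensor, had a difference of 0.44 ± 0.44 and did not pass the test. Of 7 poly(ADP-ribose) polymerase genes and partners 3 rose (42.9%, against 11.5% of all genes), led by Parp14, 4.33-fold higher, and Parp12, 2.53-fold higher. Parp1, which acts in DNA repair, was 1.63-fold lower, while another of its probes gave a difference of -0.13 (adjusted p = 0.728, limma). Trim ubiquitin ligases rose in 5 (18.5%, against 11.5% of all genes) and fell in 5 (18.5%, against 14.6%) of 27 genes. Trim30a was 3.97-fold, Trim21 3.77-fold, Pml 2.79-fold and Trim30d 2.71-fold higher, while Trim47 was 1.88-fold lower and Trim16 at least 1.44-fold lower. Shared probe binding between Trim30a and Trim30d was not tested. Another probe of Trim21 gave a difference of 0.33 and another probe of Pml 0.10, and neither passed the test (adjusted p = 0.222 and 0.775, limma).

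Cytosolic ribosomal protein genes were seldom called, whereas the proteasome and mitochondrial ribosome lists had shares nearer to that of all genes. Of 52 cytosolic ribosomal protein genes 0 rose and 1 fell, Rps15a, which was at least 1.29-fold lower, so that 1.92% were called against 26.1% of all genes. The count lower was 2 without IFNγ array 1 or without IFNγ array 2. The count lower was 8 with array weights, and 4 with a trended variance or without background correction. The list median was -0.09 with quantile normalization, 0.02 with cyclic loess and 0.20 with median scaling. Of 68 mitochondrial ribosomal protein genes 8 rose (11.8%) and 4 fell (5.88%), and 3 were called higher without control array 3. Their differences ran between -0.74 for Mrpl50 and 0.75 for Mrpl16. Of 34 genes of the constitutive proteasome 6 rose (17.6%) and 2 fell (5.88%). Psma7 was 1.63-fold higher and Psma5 1.42-fold higher. The number higher was 2 without control array 2, and 3 without control array 1 or IFNγ array 3. The called differences in these 3 lists ran between -1.02 and 0.75.

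**Figure D5:**
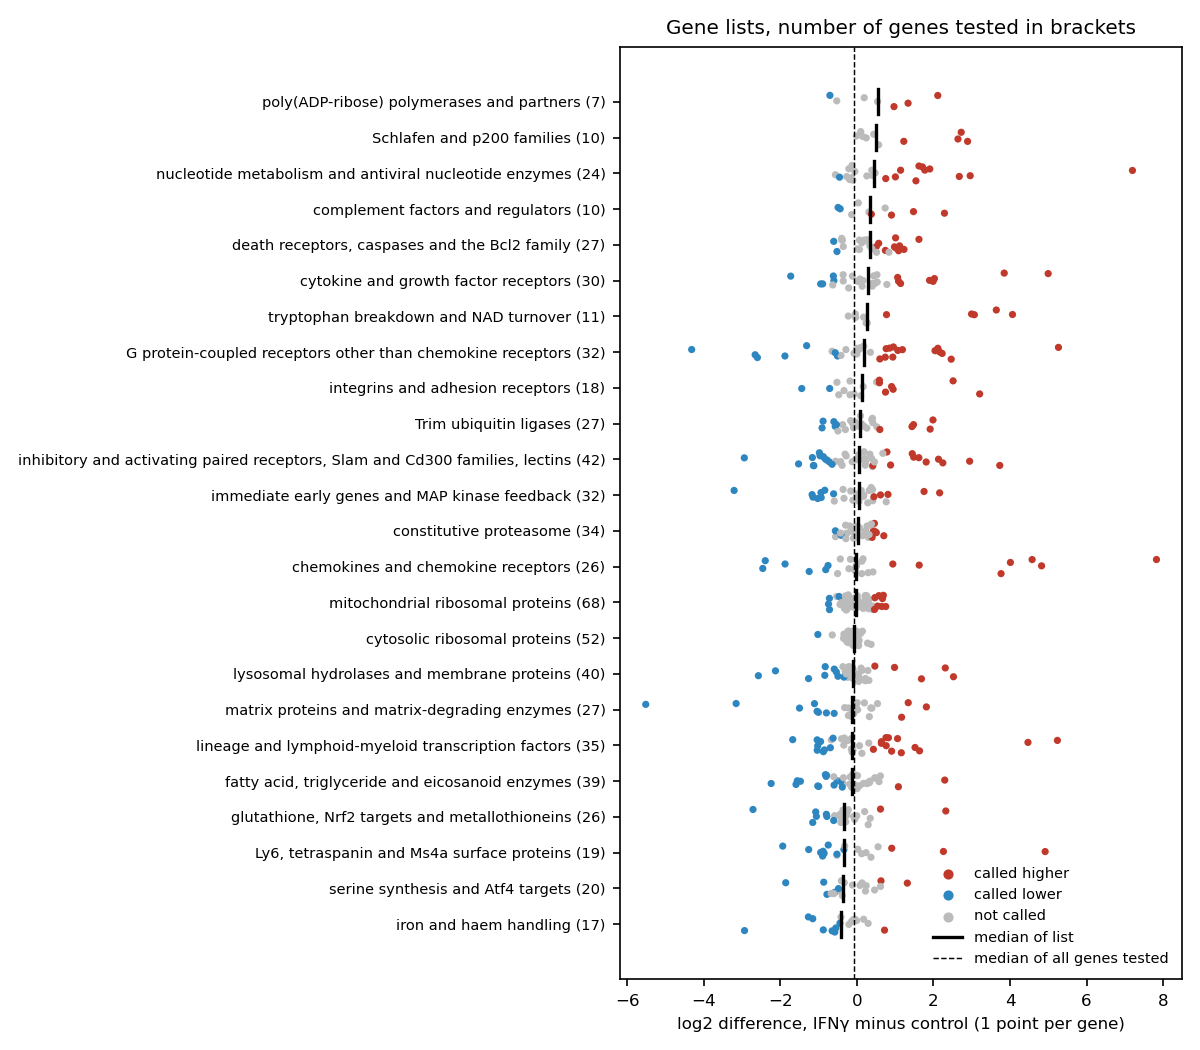
Log2 difference, IFNγ minus control (horizontal axis), of each gene tested in 24 lists, with red points called higher, blue called lower and grey not called; the black bar is the list median and the dashed line the median of all genes tested. Nucleotide, tryptophan and NAD genes extend to the right, iron and glutathione genes lie mostly to the left, and ribosomal genes stay near the dashed line. The called lipid genes are mostly lower, but the median of that list, -0.14, is close to the dashed line at -0.07.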

How the data were processed

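Biotin-labelled RNA of 15 macrophage samples was hybridised to Illumina bead arrays. Per the file headers, the authors' deposited non-normalized table holds, for each array, mean bead intensity on a linear scale and a detection p-value. No label or header says if background was subtracted before deposit. The authors also deposited log2 values of the series, whose method is not stated, and these served as an alternative only (lowest correlation with the values used here 0.9998).

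Intensities were background-corrected with limma 3.58.1 in R 4.3.3 (normal-exponential model, background from the detection p-values, offset 16), put on the log2 scale and quantile-normalized. Of 15978 probes, 11117 had a detection p under 0.01 on every array of at least 1 of 6 groups. Of all probes 14994 had 1 gene symbol and 984 none, from the platform's annotation; updating through gene IDs changed 0 symbols. The brightest probe stood for each gene. Limma fitted 6 group means to the 15 arrays with empirical Bayes; tests were on both sides, Benjamini-Hochberg adjusted over 7669 genes and called under 0.05. The fit was tested on simulated data. Where 1 group had no array with the gene detected, its fold was a lower bound, set per array by the higher of that array's dimmest detected probe and the probe itself.

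Arrays were grouped by title. Named genes were the 15 largest called rises and 15 largest falls with no overlap between groups, up to 8 bounds each way, up to 6 each way for IFNγ against IFNβ, and from each of 24 lists up to 6 called and 2 uncalled members; antigen presentation, interferon-inducible GTPases and numbered transcripts were left out. Members, lists and alternatives were chosen with earlier results of these data known. Promoter windows were matched by symbol, for 6325 of the 7669 genes. Alternatives changed the background correction, offset, scaling, filter, probe choice, variance model, array weights, block and arrays fitted.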

Additional observations from a re-analysis of the deposited data

Results flagged for a closer look

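Probes without a gene symbol lay outside the gene tests, and were noted because they carried signal too. Of 654 such probes tested 82 were higher with IFNγ than in controls and 84 were lower (limma, adjusted p under 0.05), in all 25.4%, against 24.7% of the 10463 probes with a symbol. Groups of 3 arrays were too small for a test of single outlying arrays.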

How the results depend on the processing

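The number of genes called for IFNγ against controls, 2001, ran between 1739 and 2260 under 15 of the 16 alternatives that kept all IFNγ and control arrays, and was 3072 with array weights. It was 1577 to 1882 with any 1 IFNγ or control array left out, and 2123 without the array IFNg_LPS rep1, which was an alternative chosen after seeing the data. For IFNγ against IFNβ the count of 1582 became 2610 with array weights. It was 867 to 1456 with any 1 of the IFNγ or IFNβ arrays left out, where fewer arrays enter, and 1677 without IFNg_LPS rep1. With the replicate number as a block the counts were 1855 against controls and 1364 against IFNβ. Same-numbered IFNγ and control arrays deviated with correlations of -0.09, -0.02 and -0.05, so the numbers were not taken to pair the arrays; for the 2 IFNγ and IFNβ pairs they were 0.15 and 0.13. Cyclic loess turned the balance to 1090 rises and 858 falls, and median scaling gave 880 and 859, against 884 and 1117. Of the 157 named genes called against controls 140 kept their call and direction in every alternative run, 17 lost the call in at least 1 and 0 reversed. Against IFNβ 1 named gene, F13a1, lost its call, without IFNβ array 2. Dim probes limit the folds: 112 raised and 68 lowered genes were detected on no array of the lower group, so their fold is at best a bound. Where a gene was detected on only part of the arrays of a group, the undetected arrays entered the fold at their measured signal.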

Other observations

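Saa3, an acute phase protein gene, was named by its difference between the interferons. It measured 7.06, 6.69 and 6.95 with IFNγ, 10.11 and 10.27 with IFNβ, and 6.54, 6.88 and 8.44 in controls. The IFNγ and control arrays overlapped, with a difference of -0.38 (adjusted p = 0.455, limma), whereas IFNγ minus IFNβ was -3.29 (adjusted p = 2.82e-05, limma). Control array 3 stood above its companions for this gene.

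Nos2, inducible nitric oxide synthase, is a textbook IFNγ target that needs a second signal for full expression. Here, with IFNγ and without LPS, it was detected on 1 of 3 IFNγ arrays and 0 of 3 control arrays, with a difference of 0.44 (adjusted p = 0.269, limma). It was chosen after its value was seen.

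Several named genes had further probes whose differences, IFNγ minus control, were over 1 log2 unit apart. Upp1 had differences of 7.20, 6.16 and 4.95 by probe, and Slco3a1 of 4.35, 3.13 and 1.97. Ednrb gave -4.31, -3.67 and -2.04, Dusp4 -3.21 and -1.90, and Phf11d 3.77 and 2.76. In these 5 genes every probe moved in the same direction and passed the test. In 4 more, Gstm1 (-2.71 and -0.71), Il15ra (2.03 to 0.18 over 4 probes), Trim21 (1.91 to 0.33 over 3 probes) and Pml (1.48 and 0.10), at least 1 probe did not pass. Probes closer together that did not pass were found for Asns (-0.42), Cbr3 (-0.81), Cr1l (-0.17), Birc2 (0.23) and Parp1 (-0.13).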
